A study of Homo sapiens with 6 samples.

Results

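The nuclear genes of respiratory complexes II to V and of their electron carrier cytochrome c were compared between 2 culture forms of a lymphoma cell line. The set holds 44 genes chosen by name: 4 of complex II, 9 of complex III, cytochrome c itself, 11 subunits and 7 assembly factors of complex IV, and 12 subunits of complex V. Probe sets were assigned to them by the gene symbol of the platform annotation, with older symbols such as ATP5A1 for ATP5F1A counted too. Of the 44 genes, 41 had a probe set that named them alone and entered the comparison, out of 13765 genes tested. SDHB, UQCRFS1 and UQCRH had none.

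RL is an established human B lymphoid line derived from a B cell lymphoma, and all samples carried the labelled genotype t(14,18)+. In the MALC group, for multicellular aggregates of lymphoma cells, untreated cells were collected after 10 days of culture (n = 3). In the suspension group, untreated cells were collected in exponential growth (n = 3). Culture form and growth phase therefore changed together and cannot be told apart. RNA was measured on Affymetrix U133 Plus arrays, and values are linear signal intensities, 1 per probe set and array. The labels do not state whether the samples are separate cultures, and p-values thus cover only the spread among these 6 samples of a single line, which may be technical.

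Complex II (succinate dehydrogenase) feeds electrons from the citric acid cycle into ubiquinone, complex III passes them to cytochrome c, and complex IV (cytochrome c oxidase) passes them to oxygen. Complex III and complex IV pump protons out of the matrix, and complex V (ATP synthase) uses their return to make ATP. Most subunits are encoded in the nucleus, a few in mitochondrial DNA, and complex IV needs dedicated chaperones that insert its copper and heme A.

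Array medians lay between 80.75 and 81.67, and with arrays on a common scale a change of all transcripts together could not be seen. Samples 2 and 3 of a group correlated at 0.9984 in MALC and 0.9985 in suspension across probe sets, more closely than either did with sample 1. As a sign of RNA quality, ACTB control probe sets at the 3′ end were brighter than those at the 5′ end by a ratio of 1.22 to 1.33 in MALC, against 1.31 to 1.54 in suspension. The same ratio for GAPDH was 1.01 to 1.02 in MALC, against 1.04 to 1.06 in suspension, without overlap. For 5 measured B cell markers the summed signal lay at 27830 to 31900 in MALC, against 28000 to 33430 in suspension. By the brightest probe set of each gene, none of the tested markers of B cells, T cells, macrophages, fibroblasts or endothelium passed the test. Dimmer probe sets passed as higher for CD79B (0.41 and 0.38) and as lower for PAX5 (-0.20). Summed fibroblast markers were 531.7 to 583.5 in MALC, against 616.4 to 1070 in suspension. Another COL1A1 probe set, not part of these sums, stood at 11.79 to 11.99 in MALC, against 10.96, 1127 and 359.2 in suspension 1, 2 and 3. COL1A2 stood at 45.97 to 54.17 in MALC, against 54.08, 346.6 and 126.9 in suspension. The part of these samples in the results was not tested, and counts without suspension 2 and suspension 3 are given below.

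Respiratory genes moved in both directions in MALC, and most changes were small. Their signals were high: 30 members lay above the 90th percentile of all genes tested, and the median percentile was 97.6. Whether high signal limited the size of their changes was not tested. Of the 41 genes tested, 12 fell and 7 rose (limma, Benjamini-Hochberg adjusted p under 0.05 over all genes tested). Those are 29.3% and 17.1% of the members, against 23.7% lower and 19% higher over all 13765 genes, where 42.7% passed in either direction. The median log2 change was -0.10, beside -0.06 over all genes tested. The 3 MALC and 3 suspension values did not overlap for 23 of the 41, against 56.9% of all genes. In shares of calls the members thus lay near the background in this fit. Counts varied with the setting, and shares under other settings were not compared. Complex V had 6 of 12 genes lower, or 2 of 8 without probe sets that may match several transcripts. That setting dropped ATP5MC1, and it left ATP5F1A and ATP5PB with dim probe sets near the limit for low signal. Cytochrome c was lower, as were 3 copper chaperones of complex IV, SCO1, SCO2 and COX11, while the chaperone COX17 was higher by a dim probe set. Complex II had no call in either direction. Differences between the complexes were not tested.

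**Figure D1:**
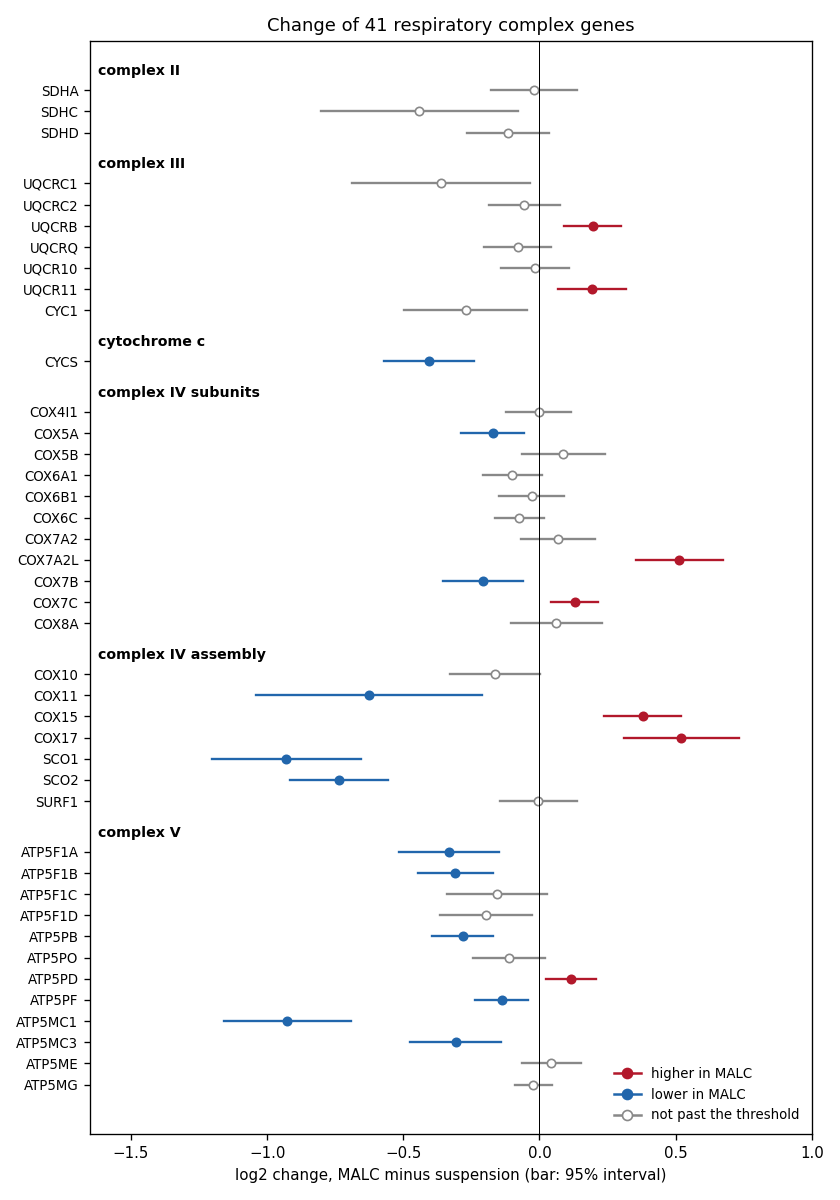
Log2 change of the 41 tested genes, MALC minus suspension, by role group, with bars for the 95% interval of the limma estimate. SCO1 (-0.93), ATP5MC1 (-0.93) and SCO2 (-0.74) lie farthest to the left, COX17 (0.52) and COX7A2L (0.51) farthest to the right, and most other genes lie close to 0.

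The calls varied with the samples and settings used. With suspension 2 and suspension 3 left out, a setting added after seeing the data, 9 genes fell and 2 rose. Without MALC 1 the number lower was 19, and without MALC 2 it was 7, with 3 higher. Counts over all genes moved too, to 2113 to 3632 lower and 1880 to 2859 higher on leaving out 1 array. The calls of 5 genes held under every alternative that kept their probe sets: SCO1, SCO2 and ATP5MC1 lower, COX7A2L and COX17 higher. Each of these 5 had only 1 probe set past the filter on low signal. Settings that change the choice of probe set therefore could not alter their values. The COX17 probe set was dim. A brighter one, shared with POPDC2, entered none of the settings and gave 0.08 (adjusted p = 0.143 over all probe sets). Sample 1 stood apart within both groups: for all 12 lower genes MALC 1 had the highest MALC value, and for 11 of them suspension 1 had the highest suspension value. Over all 3266 lower genes these shares were 76.5% and 58.6%. For 6 of the 7 higher genes MALC 1 had the lowest MALC value, against 72.1% of the higher genes overall.

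**Figure D2:**
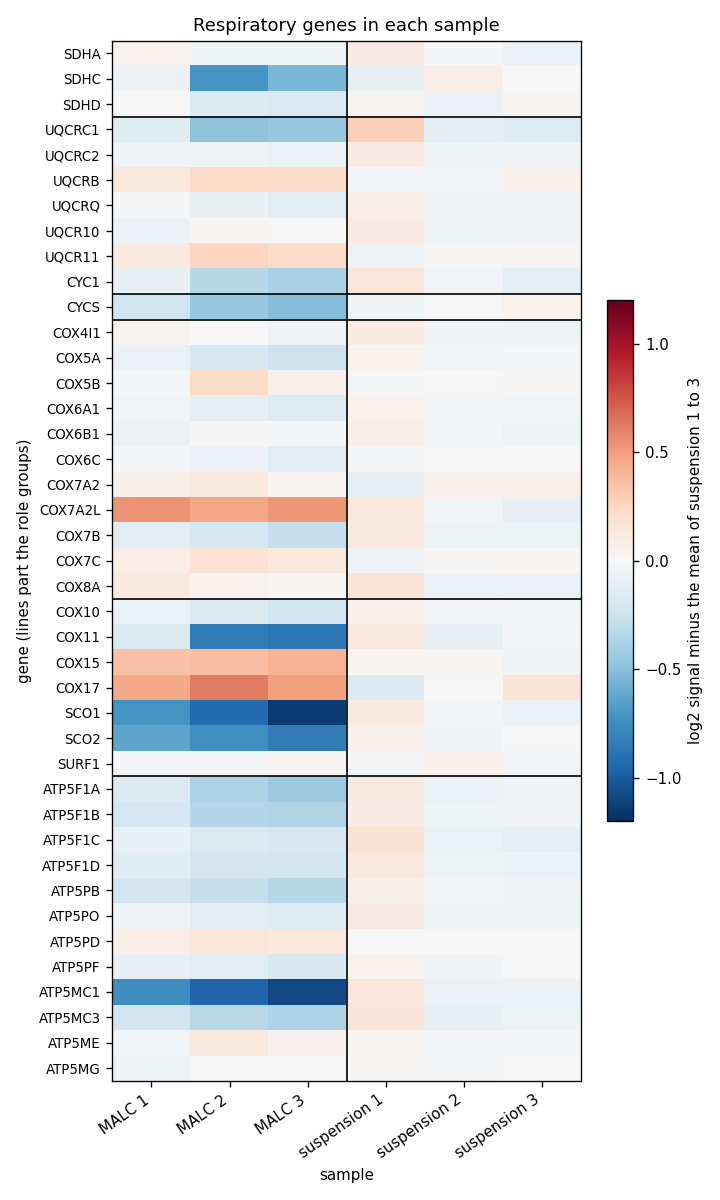
Heat map of the 41 tested genes (rows, in role groups) in the 3 MALC and 3 suspension samples (columns); colour gives the log2 signal minus the mean of the 3 suspension samples. In MALC 1 the blue of the lower genes is paler than in MALC 2 and MALC 3, as for ATP5MC1 (3033, against 2609 and 2398), while COX7A2L and COX15 are red in all 3 MALC samples.

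Promoter sequences of 6 genes are shown because genes that moved in opposite directions can be set side by side: SCO1 (lower) with COX15 (higher), both complex IV assembly factors; CYCS (lower) with COX17 (higher); and ATP5MC1 (lower) with ATP5MC2 (higher), 2 genes of the same ATP synthase subunit, the second from the list of further subunits. Each window is the RefSeq sequence from 250 bases before to 50 after a transcript start on build GRCh38.p14, 5′ to 3′ on the gene's strand. COX17 had 2 windows and ATP5MC2 had 3, and the first is shown. Capitals mark matches, on either strand, to an NRF1 core (GCATGCGC), an ETS core as bound by GABP (CCGGAAG), a YY1 core (AAGATGGC) or the core of the hypoxia response element (ACGTG). NRF1 and GABP are known regulators of respiratory genes. The NRF1 and hypoxia cores are nearly palindromic, so matches on both strands can overlap in a single run of capitals.
SCO1, chr17:10697484-10697783, minus strand: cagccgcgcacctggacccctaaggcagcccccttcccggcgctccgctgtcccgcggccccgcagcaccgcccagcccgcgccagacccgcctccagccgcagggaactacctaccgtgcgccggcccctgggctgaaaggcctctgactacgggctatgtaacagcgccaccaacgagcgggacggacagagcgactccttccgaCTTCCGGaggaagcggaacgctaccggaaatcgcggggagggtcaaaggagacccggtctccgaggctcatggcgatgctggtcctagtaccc
COX15, chr10:99732078-99732377, minus strand: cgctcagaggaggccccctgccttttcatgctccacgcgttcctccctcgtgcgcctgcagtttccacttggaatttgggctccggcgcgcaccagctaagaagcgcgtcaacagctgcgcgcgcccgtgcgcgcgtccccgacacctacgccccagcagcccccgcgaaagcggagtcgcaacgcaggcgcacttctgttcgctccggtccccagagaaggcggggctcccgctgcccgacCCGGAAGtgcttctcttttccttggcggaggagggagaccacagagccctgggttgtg
CYCS, chr7:25125211-25125510, minus strand: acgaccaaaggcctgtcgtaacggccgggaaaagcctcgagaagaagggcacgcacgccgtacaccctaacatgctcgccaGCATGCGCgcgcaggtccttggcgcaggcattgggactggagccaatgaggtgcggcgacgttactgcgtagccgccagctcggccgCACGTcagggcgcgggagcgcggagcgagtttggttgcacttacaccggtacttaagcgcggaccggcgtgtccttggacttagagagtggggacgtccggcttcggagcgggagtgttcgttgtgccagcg
COX17, chr3:119677357-119677656, minus strand: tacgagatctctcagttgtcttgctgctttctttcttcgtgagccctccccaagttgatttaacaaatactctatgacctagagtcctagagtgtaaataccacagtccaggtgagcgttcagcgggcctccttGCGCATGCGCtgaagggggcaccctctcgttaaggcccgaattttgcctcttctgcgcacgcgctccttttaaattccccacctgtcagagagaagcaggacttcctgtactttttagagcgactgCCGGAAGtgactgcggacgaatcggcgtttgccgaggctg
ATP5MC1, chr17:48892537-48892836, plus strand: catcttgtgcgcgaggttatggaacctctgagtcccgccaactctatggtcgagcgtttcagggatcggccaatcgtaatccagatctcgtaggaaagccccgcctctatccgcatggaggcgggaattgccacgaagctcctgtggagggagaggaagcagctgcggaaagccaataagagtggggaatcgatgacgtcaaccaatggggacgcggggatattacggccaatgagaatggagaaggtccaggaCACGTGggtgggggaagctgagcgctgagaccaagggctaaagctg
ATP5MC2, chr12:53676034-53676333, minus strand: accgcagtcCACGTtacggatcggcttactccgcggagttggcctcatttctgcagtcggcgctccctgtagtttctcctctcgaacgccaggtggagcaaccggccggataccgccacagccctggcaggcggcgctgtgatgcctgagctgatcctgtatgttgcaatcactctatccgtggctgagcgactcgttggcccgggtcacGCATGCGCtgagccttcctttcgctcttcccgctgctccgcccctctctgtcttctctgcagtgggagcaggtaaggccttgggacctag

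SCO1 and COX15, which moved apart, each held the ETS core alone, and COX17 held it beside the NRF1 core. CYCS held the NRF1 and hypoxia cores, as did ATP5MC2, and ATP5MC1 held the hypoxia core alone. Of the 44 genes, 35 had a window in the RefSeq table. Among these are SDHB, UQCRFS1 and UQCRH, which were not tested, whereas the background below holds tested genes only. The ETS core lay in 20 of these 35 genes (57.1%), against 20.7% of the 10941 tested genes with a window, and the NRF1 core in 9 (25.7%), against 5.9%. YY1 cores were found in 6 genes (17.1%), against 6.0%, and hypoxia cores in 9 (25.7%), against 31.1%. Over all 35116 windows of the table the shares were 10.3% (ETS), 3.1% (NRF1), 2.9% (YY1) and 21.4% (hypoxia core). Split by call, the ETS core was present in 3 of 8 lower, 4 of 6 higher and 11 of 18 other tested genes with a window. In the same order, the NRF1 core was present in 2, 1 and 5 genes. The YY1 core was present in 2, 0 and 3, and the hypoxia core in 4, 1 and 4. These splits were not tested. A match is a description of letters in this window and does not show that a factor binds there.

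Complex II gave no call among its 3 tested genes, while 42.7% of all genes tested passed in either direction. SDHA, which encodes the flavoprotein that oxidises succinate, had signals of 2800, 2617 and 2608 in MALC and 2901, 2665 and 2574 in suspension, and the groups overlapped (log2 change -0.02, adjusted p = 0.836). SDHC, a membrane anchor that helps bind ubiquinone, had 1957, 1249 and 1398 in MALC and 1929, 2171 and 2059 in suspension. MALC 1 lay within the suspension range and the other two MALC samples below it, so the change of -0.44 missed the threshold (adjusted p = 0.0525). Without MALC 1 it was -0.63 (adjusted p = 0.00057). SDHD, the other anchor, had a change of -0.12 (adjusted p = 0.184). A probe set shared by SDHA and its pseudogenes gave 0.25 (adjusted p = 0.0346 over 32768 probe sets) and cannot be assigned to SDHA.

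In complex III 2 of 7 tested genes rose, both small accessory subunits, and none passed as lower. The background was 19% higher and 23.7% lower over all genes tested. UQCRB, a subunit of the ubiquinone-binding region, had 12110, 13130 and 12940 in MALC and 10960, 10880 and 11480 in suspension. Every MALC sample lay above every suspension sample (log2 change 0.20, adjusted p = 0.0104). UQCR11, the smallest subunit, had 6823, 7582 and 7398 in MALC and 6178, 6391 and 6483 in suspension, again without overlap (0.19, adjusted p = 0.0224). UQCRH, the acidic hinge protein, was covered by a probe set shared with its near copy UQCRHL, which gave 15940, 16510 and 16290 in MALC and 15340, 14930 and 15140 in suspension (0.10, adjusted p = 0.0279 over 32768 probe sets). Signal of the 2 copies cannot be separated there.

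The larger subunits of complex III pointed the other way without passing the test. CYC1, cytochrome c1, which hands electrons to cytochrome c, had 5136, 4323 and 4178 in MALC and 6040, 5349 and 5060 in suspension. MALC 1 lay above suspension 3, so the groups overlapped (-0.27, adjusted p = 0.0545). UQCRC1, a core subunit, had 2530, 1994 and 2033 in MALC and 3412, 2547 and 2511 in suspension, also with overlap (-0.36, adjusted p = 0.0737). Blocked by sample number, both passed as lower (adjusted p = 0.00335 for CYC1 and 0.0027 for UQCRC1). UQCR10, a small subunit, differed least by the brightest probe sets. It had 9711, 10380 and 10240 in MALC and 10940, 9848 and 9934 in suspension (-0.02, adjusted p = 0.816). A dimmer UQCR10 probe set gave -0.27 without overlap (adjusted p = 0.0935 over all probe sets). UQCRC2, the other core subunit, and UQCRQ had changes of -0.06 and -0.08 and did not pass. Both rises of the small subunits came from probe sets that may match several transcripts; without such probe sets UQCRB stood at -0.04 and UQCR11 at -0.16, neither past the threshold. The UQCR11 call was also lost on leaving out any array but MALC 1, and that of UQCRB without MALC 2 (adjusted p = 0.0529).

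CYCS, the soluble carrier between complex III and complex IV that also triggers apoptosome assembly when released, fell in MALC. Its signals were 14470, 12500 and 11900 in MALC and 16550, 17200 and 17610 in suspension. No MALC sample reached the suspension range, with a change of -0.41 and a MALC level 0.755 times that in suspension (adjusted p = 0.00322). In bulk RNA, fewer cells with a transcript and less of it per cell cannot be told apart. All 3 CYCS probe sets passed as lower, with changes of -0.41, -0.65 and -0.80. CYCS has many processed pseudogenes, which may share its signal. The call was lost without suspension 2 and suspension 3 (-0.36, adjusted p = 0.0826).

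Among the 11 structural subunits of complex IV, 2 rose, 2 fell and the median change was -0.00. The background was 19% higher and 23.7% lower over all genes tested, with a median of -0.06. COX7A2L, a supercomplex factor that ties complex III to complex IV, changed most, with 5322, 5043 and 5289 in MALC and 3994, 3557 and 3417 in suspension. The lowest MALC value lay well above the highest suspension value (1.43-fold, log2 change 0.51, adjusted p = 0.00115). COX7C, a small membrane subunit, had 15540, 16480 and 15990 in MALC and 14220, 14750 and 14900 in suspension (0.13, adjusted p = 0.0252). By their brightest probe sets no other subunit exceeded 0.21 in either direction. Dimmer probe sets gave larger values for COX5A (-0.90) and COX7C (0.26, adjusted p = 0.0424 over all probe sets). One of COX4I1 gave -0.31 and did not pass (adjusted p = 0.0982 over all probe sets).

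COX7B, another small membrane subunit, had 11440, 10760 and 10220 in MALC and 13500, 11980 and 11970 in suspension (-0.21, adjusted p = 0.0315). COX5A, a matrix-side subunit, had 11990, 11110 and 10690 in MALC and 13060, 12420 and 12550 in suspension (-0.17, adjusted p = 0.0272). In both, all MALC samples lay below all suspension samples. A second, dimmer COX5A probe set had 259.2, 178.3 and 192.9 in MALC and 427, 396.2 and 378.1 in suspension, 1.86-fold lower and again without overlap (-0.90, adjusted p = 0.00172 over all probe sets). The 2 probe sets of COX5A thus shared a direction and differed in size. COX4I1, a subunit involved in allosteric control by ATP, differed least by the brightest probe sets. It had 13440, 12970 and 12670 in MALC and 13980, 12720 and 12510 in suspension (-0.00, adjusted p = 0.961). COX5B, COX6A1, COX6B1, COX6C, COX7A2 and COX8A ranged from -0.10 to 0.09 and did not pass. By the brightest probe sets, the calls of COX5A and COX7C were lost on leaving out any array but MALC 1, and that of COX7B without MALC 2, MALC 3 or suspension 1 (adjusted p = 0.0664 to 0.105).

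Of the 7 assembly factors of complex IV, 3 fell and 2 rose, against 23.7% lower and 19% higher over all genes tested. SCO1, which delivers copper to the CuA site of COX2, had 482.5, 413.9 and 353 in MALC and 871.5, 782.4 and 756.5 in suspension. Levels in MALC were 1.91-fold lower (log2 change -0.93, adjusted p = 0.000948), with a wide gap between the groups. SCO2, its paralog in the same copper transfer, had 616, 569.8 and 529.7 in MALC and 995.2, 932.2 and 958.5 in suspension, 1.67-fold lower (-0.74, adjusted p = 0.000518). Both paralogs were thus well below the suspension range in each MALC sample. COX11, which brings copper to the CuB site of COX1, had 2225, 1399 and 1370 in MALC and 2725, 2360 and 2465 in suspension. MALC 1 lay close to the suspension range and the other two MALC samples far below it (-0.63, adjusted p = 0.0251), and the call was lost on leaving out any array but MALC 1 (adjusted p = 0.0502 to 0.0935). Its other probe sets past the filter, at -0.14 and -0.17, did not pass, and the mean of its probe sets gave -0.31 (adjusted p = 0.0214).

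COX17, the chaperone that supplies copper to SCO1 and COX11, was higher in MALC by its own probe set, with 153, 173.5 and 157.1 in MALC and 94.36, 107.6 and 121.5 in suspension. Every MALC value exceeded every suspension value (1.44-fold, 0.52, adjusted p = 0.00331). This signal was dim, and a probe set shared with POPDC2 gave 6080, 6190 and 6103 in MALC and 5896, 5647 and 5788 in suspension (0.08, adjusted p = 0.143 over all probe sets). COX15, which makes heme A, rose 1.30-fold, with 1663, 1684 and 1749 in MALC and 1327, 1317 and 1264 in suspension (0.38, adjusted p = 0.00238). Its MALC and suspension values each lay close together and far apart from the other group, although the call was lost without suspension 2 and suspension 3 (0.35, adjusted p = 0.0606). The mean of its probe sets gave 0.20 (adjusted p = 0.0387). COX10, which acts just before COX15 in heme A synthesis, had a change of -0.16 (adjusted p = 0.103). SURF1, an assembly factor mutated in Leigh syndrome, had 1638, 1652 and 1686 in MALC and 1635, 1726 and 1631 in suspension, with overlapping groups (-0.00, adjusted p = 0.962).

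**Figure D3:**
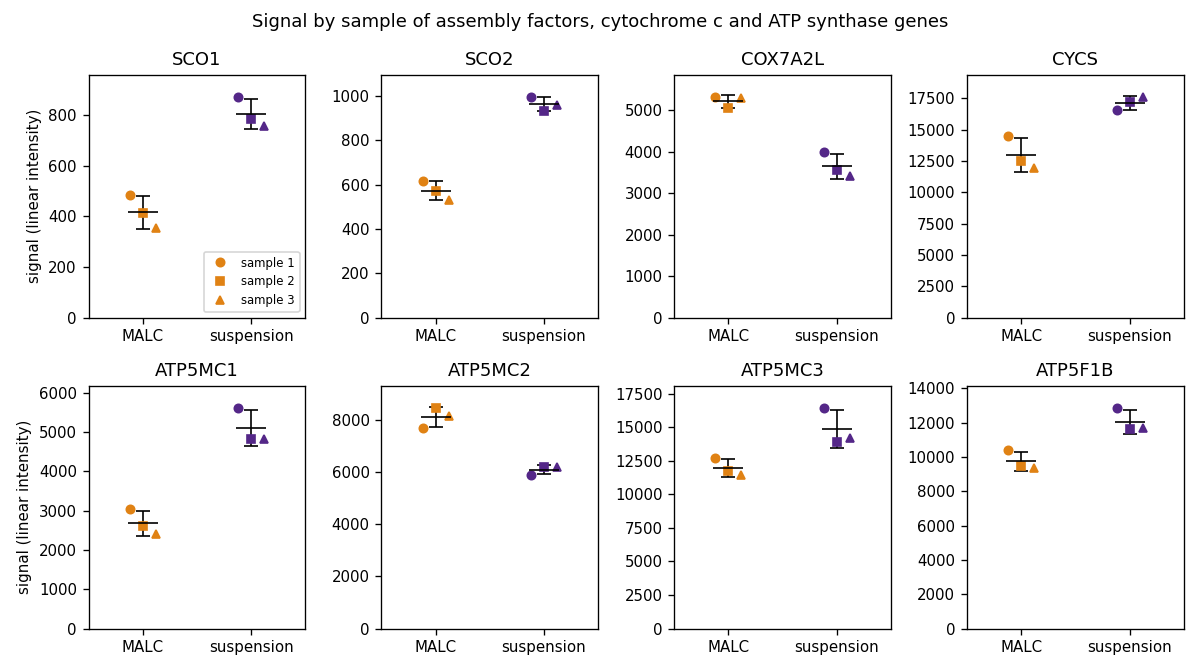
Linear signal of 8 genes in each MALC (orange, left) and suspension (purple, right) sample, with the mean and SD of each group (n = 3); marker shape gives the sample number and each vertical axis starts at 0. SCO1, SCO2, CYCS, ATP5MC1, ATP5MC3 and ATP5F1B lie lower in MALC without overlap, and COX7A2L and ATP5MC2 higher without overlap.

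Complex V had 6 of 12 subunit genes lower and 1 higher, with a median change of -0.18. Over all genes tested 23.7% were lower and 19% higher, with a median of -0.06. ATP5MC1, 1 of the genes for the proton-carrying c ring, changed most, with 3033, 2609 and 2398 in MALC and 5622, 4830 and 4834 in suspension. Every MALC sample lay far below every suspension sample (1.90-fold lower, -0.93, adjusted p = 0.000578). ATP5MC3, a further c ring gene, had 12740, 11730 and 11440 in MALC and 16460, 13910 and 14180 in suspension (-0.31, adjusted p = 0.0114), and all 3 of its probe sets passed as lower. ATP5MC2, which encodes the same mature c subunit and belongs to the list of further subunits, had 7687, 8464 and 8156 in MALC and 5898, 6202 and 6183 in suspension. It was 1.33-fold higher in MALC without overlap (0.41, adjusted p = 0.000931), the opposite of ATP5MC1 and ATP5MC3. Without probe sets that may match several transcripts ATP5MC2 had a change of 0.13 and did not pass (adjusted p = 0.113).

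The alpha and beta subunits of the head fell by smaller amounts. ATP5F1A, the alpha subunit, had 10840, 9421 and 8995 in MALC and 13210, 11650 and 11880 in suspension (-0.33, adjusted p = 0.0123). ATP5F1B, the beta subunit that carries the catalytic sites, had 10400, 9461 and 9367 in MALC and 12880, 11650 and 11680 in suspension (-0.31, adjusted p = 0.00491). Both differed without overlap and to a like extent, though the ATP5F1A call was lost without MALC 2 (adjusted p = 0.0521). It was also lost with the mean of its probe sets (-0.18, adjusted p = 0.128) and without probe sets that may match several transcripts (-0.03, adjusted p = 0.833). Both values drew on a dim second probe set, at 57.14 to 78.65 over all samples. The gamma and delta subunits of the central stalk, ATP5F1C and ATP5F1D, had changes of -0.16 and -0.20 and missed the threshold (adjusted p = 0.147 and 0.063). Blocked by sample number, they passed as lower (adjusted p = 0.0383 and 0.028).

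In the peripheral stalk, which holds the head still, ATP5PB, the b subunit, had 13870, 13260 and 12700 in MALC and 16970, 15800 and 15640 in suspension (-0.28, adjusted p = 0.00299). ATP5PF, coupling factor 6, had a change of -0.14 (adjusted p = 0.0312). ATP5PD, the d subunit, ran the other way, with 8181, 8559 and 8435 in MALC and 7741, 7724 and 7767 in suspension (0.12, adjusted p = 0.0476). By their brightest probe sets these 3 stalk genes did not overlap between groups, like 56.9% of all genes tested. ATP5PD thus differed in sign from ATP5PB and ATP5PF, though not under every setting given below. ATP5PO, which joins stalk and head, had a change of -0.11 (adjusted p = 0.148; blocked by sample number, adjusted p = 0.0427). Of the 2 membrane subunits at the dimer interface, ATP5ME had a change of 0.04, and ATP5MG had 19020, 19660 and 19780 in MALC and 20000, 19650 and 19700 in suspension (-0.02, adjusted p = 0.574). The ATP5PD call was lost on leaving out any array but MALC 1, and that of ATP5PF without MALC 2, MALC 3, suspension 1 or suspension 3. Without probe sets that may match several transcripts the change was -0.01 for ATP5PD and -0.10 for ATP5PB (adjusted p = 0.531), and with the mean of its probe sets ATP5PB also missed the threshold (adjusted p = 0.069). The second probe sets behind these values were dim, at 47.79 to 69.55 for ATP5PB and 144.6 to 158.6 for ATP5PD over all samples. Quantile normalization left ATP5PF at -0.06 (adjusted p = 0.237).

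Several genes had more than 1 probe set, which may read different transcripts or transcript ends. Of 24 members with at least 2 probe sets past the filter on low signal, 13 had all of them on the same side of 0 and 11 did not, and no gene had probe sets called in both directions (41.7% of all probe sets passed the test in a separate fit over 32768). For 11 called genes there was a second such probe set, and in 6 at least 1 of these passed in the same direction. Another 4 genes, named after their values were seen, did not pass by their brightest probe set but were higher by a dimmer one. ATP5F1C had a probe set at 868.8, 939 and 910.9 in MALC and 335.5, 361.5 and 359.3 in suspension (2.51-fold, 1.33, adjusted p = 7.3e-05), whereas its other 3 lay between -0.17 and -0.16. SDHC had one at 158.9, 179.3 and 187.2 in MALC and 73, 88.66 and 76.22 in suspension (1.00, adjusted p = 0.000303). Another, still dimmer SDHC probe set also passed as higher (0.85, adjusted p = 0.00405). For UQCRC2 and SURF1 the corresponding changes were 0.60 (adjusted p = 0.00167) and 0.41 (adjusted p = 0.0134). These probe sets rose without overlap although the brighter ones of the same genes stayed near or below 0.

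**Figure D4:**
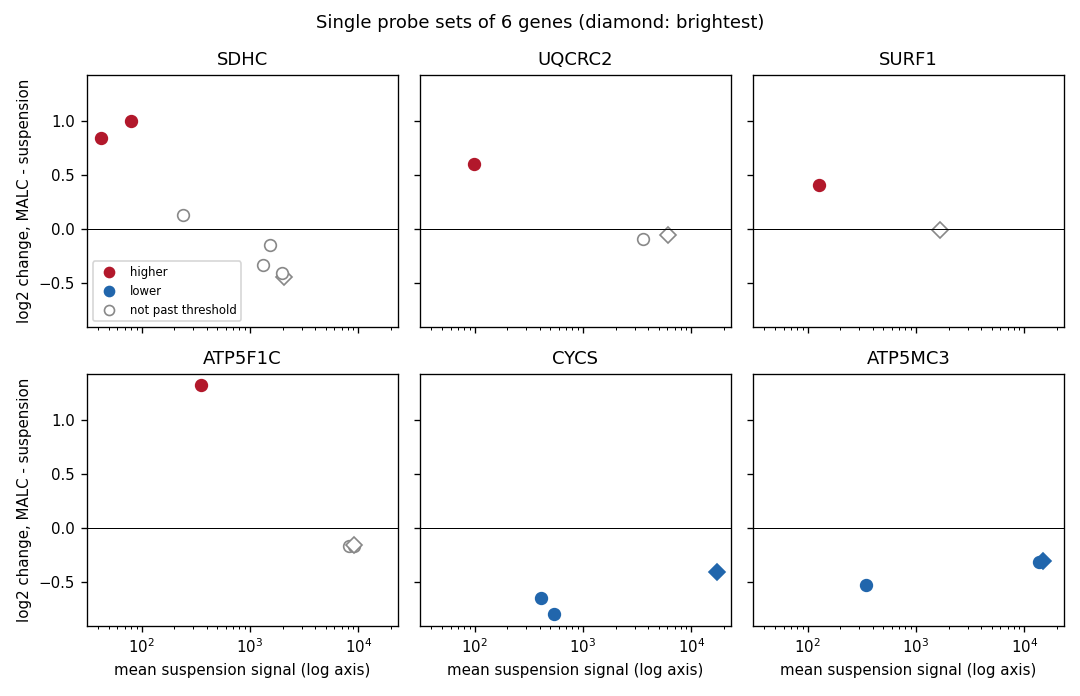
Log2 change (MALC minus suspension) of each probe set past the filter for 6 genes, against its mean suspension signal on a log axis; the diamond is the brightest probe set, which stands for the gene. Dim probe sets of SDHC, UQCRC2, SURF1 and ATP5F1C lie above 0, up to 1.33, while all probe sets of CYCS and ATP5MC3 lie below 0.

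Other genes of the respiratory pathway were counted from 6 lists. Beside each list stands the background of all genes tested: 23.7% lower, 19% higher and a median change of -0.06. Of 10 tested further subunits of complexes III to V, 1 rose and 2 fell. The riser was ATP5MC2, and the others were ATP5MK, a small ATP synthase membrane subunit (-0.22, adjusted p = 0.00357), and COX4I2, the oxygen-linked isoform of subunit 4, at a dim signal (-0.27, adjusted p = 0.0137, and 0.0552 without MALC 2). Assembly factors of complexes II to V gave 4 higher and 13 lower of 32, with a median of -0.16. COA7, a heme-binding complex IV assembly factor, had 496.3, 457.3 and 420.4 in MALC and 947, 886.5 and 888.6 in suspension (1.95-fold lower, -0.96, adjusted p = 0.000283). TACO1, a translational activator of COX1, had a change of -0.73 (adjusted p = 0.00133), and FASTKD2, a mitochondrial RNA-binding protein, -0.70 (adjusted p = 0.00121). The FASTKD2 call rested on a probe set that may match several transcripts and was lost without such probe sets (adjusted p = 0.996).

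Complex I subunits, which belong to the same chain, gave 4 higher and 16 lower of 33, with a median of -0.23. All genes tested gave 19% higher and 23.7% lower, with a median of -0.06. NDUFS6 had a change of -0.56 (adjusted p = 0.00425), NDUFA9 of -0.52 (adjusted p = 0.00761) and NDUFS1, an iron-sulfur subunit, of -0.50 (adjusted p = 0.0367), a call that was lost on leaving out any array but MALC 1. Without probe sets that may match several transcripts NDUFS1 stood at -0.13 (adjusted p = 0.191). The number of higher genes was 1 without MALC 2 and 2 without suspension 2. Whether complex I differed from complexes II to V was not tested.

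Of 7 measured mitochondrially encoded subunits, 3 fell and none rose. ND2, a complex I subunit, had 19880, 18070 and 18860 in MALC and 25700, 26080 and 26300 in suspension (-0.46, adjusted p = 0.000284). COX1, the catalytic subunit of complex IV, had 30990, 30950 and 30920 in MALC and 31360, 32020 and 33310 in suspension, which missed the threshold (-0.06, adjusted p = 0.137). ATP6, the complex V subunit of the proton channel, had a change of -0.16 (adjusted p = 0.0253). ND6 had 636.5, 424.3 and 501.8 in MALC and 637, 1570 and 1778 in suspension, where suspension 1 lay at the level of MALC 1 (-1.21, adjusted p = 0.0288). The ND6 and ATP6 calls were lost without MALC 2, MALC 3, suspension 2 or suspension 3, which left ND2 as the only call. Without both suspension 2 and suspension 3, ND6 stood at -0.30 (adjusted p = 0.358) and ATP6 at -0.07 (adjusted p = 0.311). Nuclear copies of mitochondrial genes may share this signal.

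Of 11 tested regulators of respiratory gene expression, 6 fell and 1 passed as higher, by their brightest probe sets, with a median of -0.69. Over all genes tested 23.7% fell and 19% rose, with a median of -0.06. PPARGC1B, a coactivator of respiratory genes, had 273.7, 188.4 and 174 in MALC and 557, 510.2 and 457.6 in suspension (2.33-fold lower, -1.22, adjusted p = 0.00106). PPRC1, a related coactivator, had 607, 543.3 and 483 in MALC and 1137, 1384 and 1349 in suspension (-1.22, adjusted p = 0.000343). In both genes each MALC sample lay below every suspension sample, by a wide margin. The mean of its probe sets gave -0.75 for PPARGC1B (adjusted p = 0.00102). TFAM, which packages and transcribes mitochondrial DNA, had a change of -0.94 (adjusted p = 0.00106), but -0.24 (adjusted p = 0.152) without probe sets that may match several transcripts. NRF1, the factor whose core was searched above, had no settled direction. Its brightest probe set passed as higher (0.83, adjusted p = 0.00295), another passed as lower (-0.19, adjusted p = 0.0443 over all probe sets), and the other 3 did not pass. The mean of its probe sets gave 0.13 (adjusted p = 0.0862).

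Of 8 tested oxygen-linked respiratory genes, 2 rose and 3 fell. MXI1, a MYC antagonist induced in hypoxia, had 4807, 5422 and 5968 in MALC and 1073, 1365 and 1362 in suspension (4.23-fold higher, 2.08, adjusted p = 8.03e-05). HIGD1A, a respiratory supercomplex factor, had a change of -0.43 (adjusted p = 0.00988). HIF1A, the oxygen-regulated subunit of the hypoxia-inducible factor, had a change of -0.33 (adjusted p = 0.0133), and its call was lost without suspension 2 or suspension 3, and without both stood at -0.15 (adjusted p = 0.211). Without either of these, or without MALC 2 or MALC 3, the number of higher genes was 1.

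**Figure D5:**
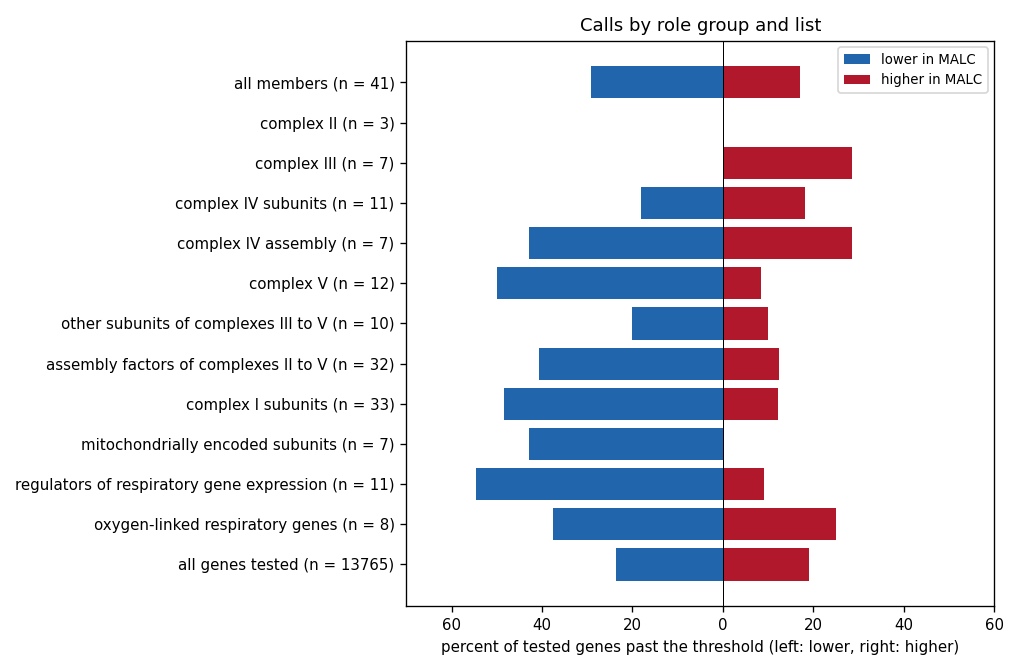
Percent of tested genes past the threshold, lower in MALC to the left and higher in MALC to the right, for the role groups, the 6 pathway lists and all genes tested; the number of genes tested is given beside each name. Complex V reaches 50% lower and complex IV subunits 18.2%, against 23.7% for all genes; groups of 3 to 12 genes move in large steps.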

How the data were processed

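Total RNA of 6 RL samples (200 ng each, per the labels' protocols) was labelled and hybridised to single-colour arrays. The authors deposited linear intensities for 54675 probe sets. Per the submitters' processing notes MAS5 was used; for what step and in which version, and how background and arrays were corrected, is not given in the sources used here. Of 54613 probe sets other than controls, 41091 named 1 gene, 1801 several and 11721 none; symbols were updated through RefSeq (GRCh38.p14), which held 41037.

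Intensities were set to log2(value + 16), so fold changes of dim genes are understated. Probe sets with a mean at or above the 40th percentile (signal 53.4; 32768 probe sets) were kept, and the brightest stood for each gene. Groups were taken from the sample titles. The comparison used limma 3.58.1 under R 4.3.3 (lmFit, then eBayes with trend; two-sided; no term besides group). Benjamini-Hochberg adjustment ran over all 13765 genes at 0.05; probe sets were fitted separately. The fit was tested on simulated data. The number of arrays limits the precision.

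The members, lists and tests were chosen with earlier results of these data known. Sample values were given for up to 4 called members of each role group with the largest change and for the member that changed least, and up to 3 called genes were named per list, by size of change. Others were named after their values were seen. Both groups share sample numbers, and the labels do not say what these mark. Across probe sets past the filter, equal numbers deviated from their group means with correlations of 0.25, 0.17 and 0.14, and unequal numbers with -0.22 to 0.18, so numbers 2 and 3 were not told apart. All 3 exceeded 0.1, so values with the number as a block are given where they change a call. Alternatives comprised 17 settings chosen at the outset and 2 added after seeing the data. Promoter windows were searched for exact letters on both strands.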

Additional observations from a re-analysis of the deposited data

How the results depend on the processing

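Settings were changed singly, and the genes lower and higher in MALC (12 and 7 of 41) were counted again. Leaving out 1 array gave 7 to 19 lower and 3 to 7 higher. By group this gave 0 to 2 lower in complex II, 0 to 2 higher and 0 to 2 lower in complex III, 1 to 2 higher and 0 to 3 lower among complex IV subunits, 2 higher and 2 to 4 lower among assembly factors, and 0 to 1 higher and 4 to 7 lower in complex V. Over all genes it gave 1880 to 2859 higher and 2113 to 3632 lower. The fit with the replicate block gave 17 lower and 7 higher members, with 2 lower in complex III. Its count over all genes is not given here, so these counts have no background beside them.

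Array weights gave 22 lower (2 in complex II, 2 in complex III, 4 complex IV subunits) and 4 higher complex IV subunits with 2 higher in complex V, and 5230 lower genes in all. Without both samples numbered 1, an added alternative, there were 22 lower (2 in complex II, 2 in complex III, 4 complex IV subunits), 4 higher complex IV subunits and 2 higher in complex V. The count over all genes is not given here for this setting, so these counts cannot be set against a background. With samples 2 and 3 averaged, leaving 2 values a group, 4 members were lower (0 complex IV subunits, 2 in complex V) and 2 higher (0 in complex III, 1 complex IV subunit, 1 assembly factor, 0 in complex V), and 1231 genes were higher and 1113 lower in all. Without suspension 2 and suspension 3, where the lone suspension sample was assumed to vary like MALC, 2 members were higher (0 in complex III, 1 complex IV subunit, 1 assembly factor, 0 in complex V), with 1 lower in complex III and 1 lower complex IV subunit, and 1469 genes higher and 1386 lower in all.

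Without probe sets that may match several transcripts (_s_at and _x_at), 7 of 35 members were lower (2 of 8 in complex V) and 0 in complex III higher. Among all 10946 genes tested under that setting, 2360 were lower and 2037 higher. ATP5F1A and ATP5PB were then read by dim probe sets near the filter. Under that setting the sign turned for UQCRB (-0.039), UQCR11 (-0.16), ATP5PD (-0.012) and ATP5F1C (1.33). The mean of a gene's probe sets gave 0 higher in complex III and turned SURF1 (0.20) and ATP5F1C (0.21). Without the filter complex V had 0 higher; with the filter at the 60th percentile complex II and complex III each had 1 lower; quantile normalization gave 0 lower complex IV subunits; without the trend these were 0 lower and 1 higher, and complex V had 0 higher. Counts of all members stayed within 1.5 times under median centring and a pseudocount of 64. For 14 uncalled members at least 1 setting gave a call, and for 8 none did. The causes were not tested. Dim probe sets such as that of COX17 lie nearer the background, which limits their values.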
